A study of Mus musculus with 3 samples.

Results

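To describe how the machinery for uptake of debris and dying cells stood in irradiated skin, 10 receptors and ligands by which myeloid cells take up modified lipids, glycans and dying cells were followed in single cells of mouse skin with and without ultraviolet B (UVB) light. The genes were Mrc1, Cd36, Msr1, Stab1, Mertk, Axl, Gas6, Timd4, Marco and Lrp1, chosen by symbol, and all 10 had a row among the 32285 genes of each count matrix. Their unique molecular identifiers (UMIs, 1 for each captured RNA molecule) were summed per library over macrophages with and without Lyve1, monocytes, dendritic cells and Langerhans cells, and are given as CPM, the count scaled to a total of 1000000 UMIs in the class.

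The data were 3 droplet libraries of dorsal skin cells enriched for the leukocyte protein CD45 with magnetic beads, 1 from each of 3 groups. All animals were 8-week-old male mice of the C57Bl/6 strain with hair follicles in telogen, the resting phase. WT_Ctrl came from wild-type skin that received 0 UVB exposures, WT_UV from wild-type skin after 3 exposures, and RP_UV from Rosa26-rtTA; Tre-Ptgs2 skin after the same 3 exposures. In the RP line, doxycycline switches on a rat copy of Ptgs2, the gene of the prostaglandin-forming enzyme Cox-2, in all tissues rather than in 1 cell type. With 1 library per group, differences between groups had no replicate check and were not tested. Intervals are 95% and cover counting error only: exact Poisson for a level, conditional binomial for a ratio and Wilson for a share of cells.

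After filtering, 5309, 5225 and 6070 cells remained in WT_Ctrl, WT_UV and RP_UV, with a median of 4246, 10557 and 3774 UMIs per cell. WT_UV was sequenced on a different flow cell from the other libraries, so whenever WT_UV is compared, run and group cannot be told apart. RP_UV and WT_Ctrl shared a flow cell but differ in both UVB and genotype. Pairs of libraries shared 7 to 9 cell barcodes. Ptgs2, the targeted gene, stood at 14.4, 117 and 486 CPM over all kept cells, in the order the labels call for. Reads of the rat transgene may be counted in the mouse Ptgs2 row only in part, which limits what the RP_UV value means.

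Professional phagocytes clear dying cells by efferocytosis. The dying cell exposes phosphatidylserine, which is bound directly by Timd4, or through the soluble bridge Gas6 by the receptor tyrosine kinases Mertk and Axl. Scavenger receptors such as Cd36, Msr1 and Marco bind oxidized lipids and other polyanionic debris, Mrc1 and Stab1 take up glycoproteins and matrix fragments, and Lrp1 takes up a wide range of ligands, calreticulin-bearing cells among them. In skin, macrophages that carry the hyaluronan receptor Lyve1 are known to sit mostly around vessels.

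Macrophages without Lyve1 of WT_Ctrl, WT_UV and RP_UV numbered 1176, 1494 and 1352 cells, and macrophages with Lyve1 620, 519 and 740. Monocytes were 48, 231 and 139 cells, dendritic cells 603, 557 and 173, and Langerhans cells 69, 69 and 24. The defining markers followed the names for macrophages and Langerhans cells, and less so for monocytes and dendritic cells of RP_UV. C1qa, a complement gene of macrophages, lay between 3740 and 7182 CPM in both macrophage classes, and Lyve1 between 390 and 745 CPM in the class that carries its name against 24.3 to 96.9 in the other. Cd207, the langerin gene, lay between 2269 and 2657 CPM in Langerhans cells. Of the dendritic markers, Flt3 was at 141.5, 94.2 and 27.9 CPM in dendritic cells, lowest in RP_UV. Zbtb46, at 27.45, 23.1 and 10.95 CPM, and Kmo, at 80.5, 69.8 and 28.9, were likewise lowest there. Cd209a, at 807, 790 and 751 CPM, Mgl2 and H2-DMb2 stayed near level. Ccl17, at 144.5, 146 and 384 CPM, was highest in RP_UV. Ly6c2, a monocyte marker, was at 474, 169 and 98.0 CPM in monocytes, and C1qa in the same cells was at 141, 913 and 2052 CPM, so the class held more macrophage transcript after UVB.

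Different clusters held most of a class in different libraries. The largest cluster of macrophages without Lyve1 held 54.9% of the class in WT_Ctrl, 40.2% in WT_UV and 43.1% in RP_UV, and was a separate cluster in each, although Ccl8 was the leading gene of all 3. A cluster that is mostly 1 library may be that library and not a kind of cell.

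**Figure D1:**
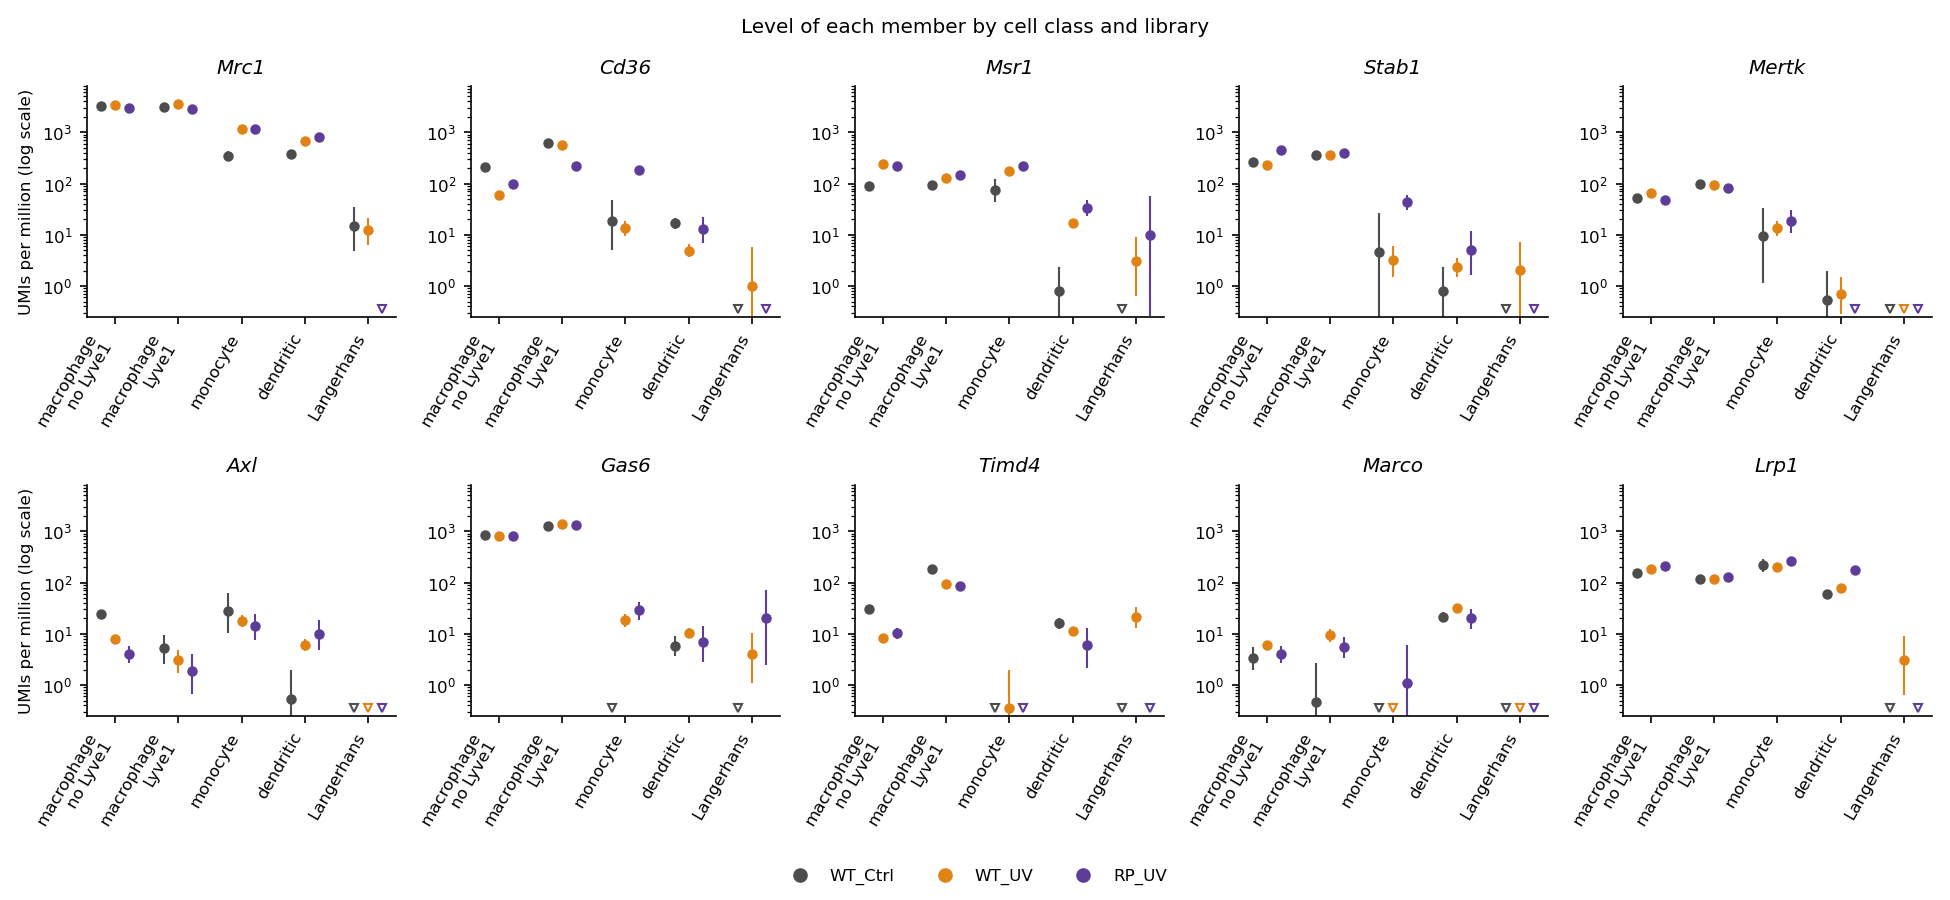
Level of each member in CPM (logarithmic axis) in the 5 myeloid classes, 1 point per library with its 95% Poisson interval, and open triangles where a class held 0 UMIs. Both macrophage classes had Mrc1 near 3000 CPM in every library, whereas Langerhans cells had few UMIs of any member.

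Most of the 10 genes had their highest level of the 5 classes in macrophages. Mrc1, the mannose receptor, was at 3246, 3454 and 3022 CPM in macrophages without Lyve1 of WT_Ctrl, WT_UV and RP_UV, and at 3150, 3568 and 2896 in those with Lyve1. The other classes were below, with monocytes at 348, 1135 and 1144 CPM and dendritic cells at 385, 686 and 812. Gas6 and Mertk were highest in macrophages with Lyve1 in each library. The exceptions were Lrp1 and Axl, with their highest level in monocytes of each library, and Marco, with its highest in dendritic cells. Axl in monocytes was at 28.2, 18.0 and 14.3 CPM, the first on 6 UMIs. Msr1 in RP_UV was alike in monocytes and macrophages without Lyve1, at 221 and 218 CPM. Langerhans cells had Mrc1 at 15.2, 12.3 and 0 CPM, below the T cells of the same libraries at 26.1, 27.8 and 49.6.

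Shares of cells with a UMI were compared after each cell was thinned to 2000 UMIs, because depth differed between libraries. T cells, which largely lack these receptors, gave the level of free RNA. Of 150 combinations of member, class and library, 64 had a share whose interval lay above that of T cells: 23 of 30 in macrophages without Lyve1, 22 of 30 in those with Lyve1, 10 of 30 in monocytes, 9 of 30 in dendritic cells and 0 of 30 in Langerhans cells. RP_UV had only 18 T cells of that depth, beside 241 in WT_Ctrl and 626 in WT_UV, so its free RNA level was the least well known. Mrc1 was found in 97.4%, 96.2% and 97.9% of macrophages without Lyve1 (98.5% of WT_Ctrl cells unthinned) and in 2.91%, 4.47% and 11.1% of T cells. A macrophage without Lyve1 carried a median of 3 of the 10 genes in each library. One with Lyve1 carried 4, 4 and 3, and those with 4 or more made up 64.1%, 55.9% and 48.8% of the class.

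Within macrophages without Lyve1, 9 members reached 10 CPM in WT_Ctrl or WT_UV. Between these libraries 1 was higher and 3 were lower by at least 1.5-fold with an interval that left out 1, which is called past the fold from here on. Over the 7957 genes tested in that class, 10.1% were higher and 4.54% lower by the same rule, so the count of higher members was near the background share. Msr1 was higher in WT_UV, and Cd36, Timd4 and Axl were lower. Between RP_UV and WT_UV, 2 of 8 members were higher (Cd36 and Stab1) and 0 lower, beside 8.68% and 12.9% of 7915 genes. Between RP_UV and WT_Ctrl, 2 of 9 were higher (Msr1 and Stab1) and 3 lower (Cd36, Timd4 and Axl), beside 17.6% and 14.9% of 7991 genes. These comparisons share libraries and are not independent of each other.

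In macrophages with Lyve1 fewer members were past the fold. Timd4 was the 1 of 8 members lower in WT_UV than in WT_Ctrl, and 0 were higher, beside 4.05% of 7906 genes lower and 5.55% higher. Cd36 was the 1 of 8 lower in RP_UV than in WT_UV, with 0 higher, beside 11.4% of 7961 genes lower and 10.5% higher. Against WT_Ctrl, RP_UV had Cd36 and Timd4 lower and Msr1 higher, which is 2 and 1 of 8 members, beside 10.9% and 12.3% of 7919 genes.

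**Figure D2:**
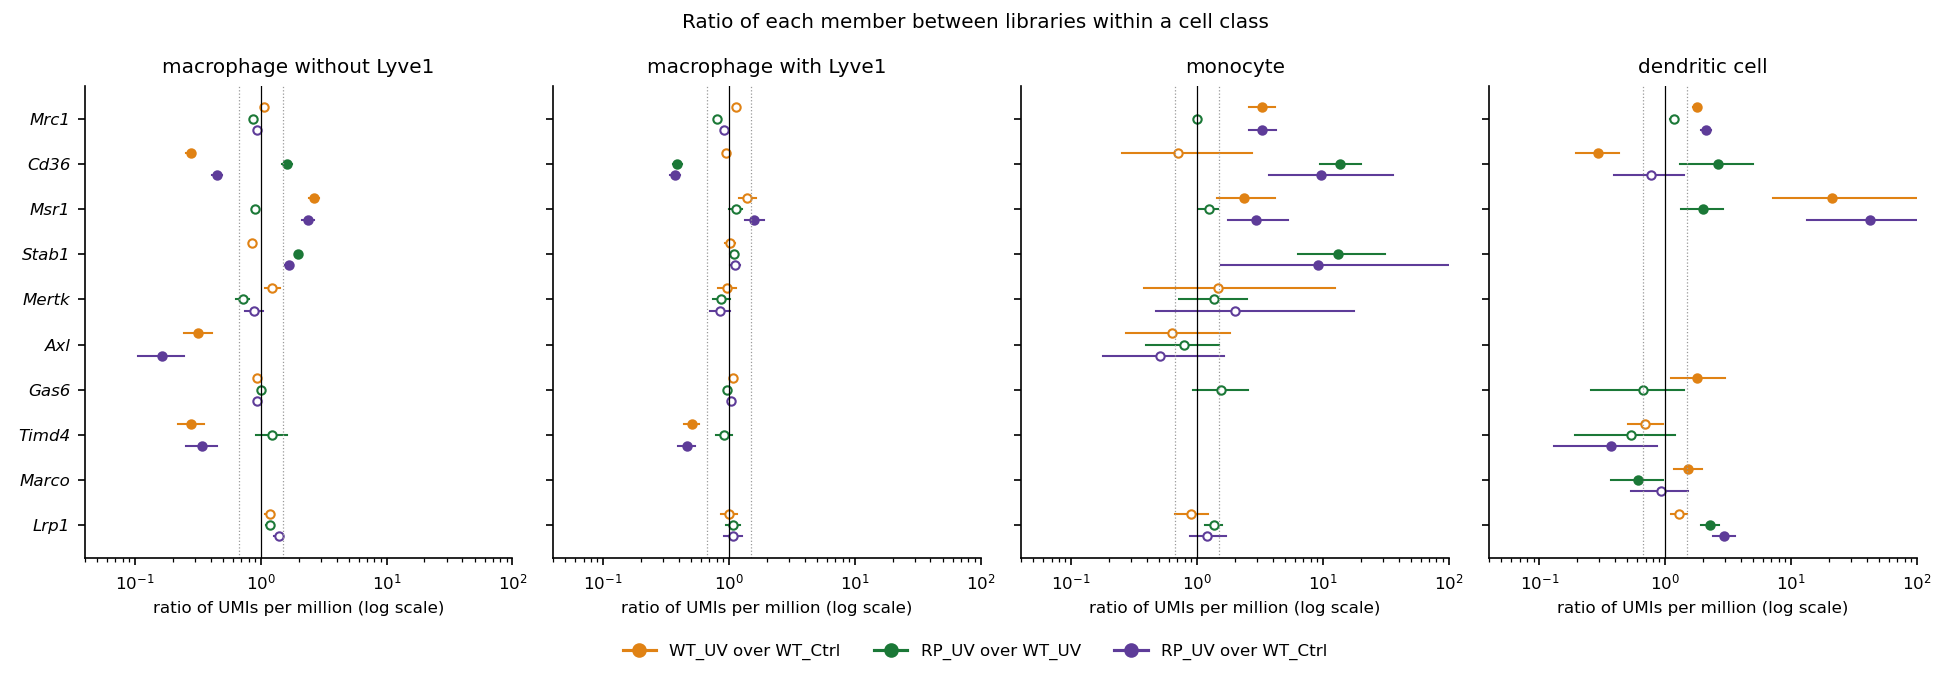
Ratios of member levels between libraries with 95% intervals in 4 classes (logarithmic axis). Filled points are past the fold, dotted lines mark 1.5-fold in either direction, bars that run past the axis are cut, and ratios under 10 CPM in both libraries or against 0 UMIs are not drawn; in macrophages without Lyve1, Cd36, Timd4 and Axl lie left of the lower line in both comparisons with WT_Ctrl.

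Cd36 (ENSMUSG00000002944, chr5:17781690-17888959 of GRCm38.p6), the class B scavenger receptor for oxidized lipoproteins and long-chain fatty acids, was ordered differently by library in each macrophage class. In macrophages without Lyve1 it stood at 213 CPM in WT_Ctrl (interval 200 to 227), against 59.1 in WT_UV (55.7 to 62.7) and 95.9 in RP_UV (89.0 to 103). The irradiated wild-type library was the lowest and the unirradiated one the highest, with no overlap of the counting intervals. The ratio of WT_UV to WT_Ctrl was 0.277 (0.255 to 0.302) and lay between 0.255 and 0.519 under every other setting tried. Within the clusters that held over 40 cells of both wild-type libraries the difference was smaller, at 312 against 250 CPM and a ratio of 0.80 (0.68 to 0.94) in a cluster led by H2-Eb1 and Retnla, and at 290 against 129 CPM and 0.446 (0.329 to 0.603) in one led by Retnla and Lyz1. That of RP_UV to WT_UV was 1.62 (1.48 to 1.78). This second ratio was not past the fold under 4 settings and turned to 0.452 when cells were clustered without integration, so its direction depended on how cells were grouped.

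With Lyve1, the order of the libraries was another one. Cd36 was at 605 CPM in WT_Ctrl (572 to 639), against 575 in WT_UV (555 to 595) and 224 in RP_UV (208 to 241). Only RP_UV was low. The ratio of RP_UV to WT_UV was 0.389 (0.359 to 0.423), and 0.316 to 0.506 under the other settings. The share of cells with a Cd36 UMI gave the same picture after thinning: 62.7%, 59.7% and 33.8% of macrophages with Lyve1, and 26.6% (24.0 to 29.3), 8.93% (7.55 to 10.5) and 14.6% (12.7 to 16.7) of those without. Unthinned shares were 69.4%, 82.9% and 50.3% with Lyve1 and 34.5%, 20.8% and 26.8% without, while T cells had 0.830%, 0.32% and 5.56% after thinning.

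Endothelial cells, which use Cd36 for fatty acid uptake, carried it at 1679, 565 and 867 CPM. The 6 endothelial markers summed to 4.63, 8.24 and 9.78 CPM in macrophages without Lyve1 and to 6.16, 3.03 and 13.1 CPM in those with Lyve1, with 4 to 6 of the 6 markers found. Cldn5 had no UMI in macrophages without Lyve1 of WT_Ctrl and RP_UV. The part of endothelial RNA in the Cd36 values of macrophages was not tested.

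Timd4 (ENSMUSG00000055546, chr11:46810786-46844333), the phosphatidylserine receptor Tim4 of long-lived resident macrophages, was lower after UVB in both macrophage classes. With Lyve1, WT_Ctrl had 186 CPM (168 to 205), WT_UV 93.8 (85.8 to 103) and RP_UV 85.5 (75.7 to 96.2). Both irradiated libraries lay below the unirradiated one, and their own intervals overlapped. The ratio of WT_UV to WT_Ctrl was 0.506 (0.442 to 0.579) and that of RP_UV to WT_Ctrl, within 1 flow cell, was 0.461. Without Lyve1, Timd4 was at 29.9 CPM (25.2 to 35.2), 8.34 (7.09 to 9.76) and 10.2 (8.02 to 12.7), with ratios of 0.279 (0.221 to 0.353) and 0.340 to WT_Ctrl. After thinning, 29.9% (25.9 to 34.3), 18.8% (15.7 to 22.5) and 15% (12.5 to 18.0) of macrophages with Lyve1 had a Timd4 UMI (38.4%, 40.5% and 23.7% unthinned).

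The Timd4 difference with Lyve1 was not seen within the clusters that both wild-type libraries shared. In a Lyve1 cluster of 564 cells of WT_Ctrl and 53 of WT_UV, Timd4 was at 198 and 189 CPM, a ratio of 0.95 (0.70 to 1.27). In another, of 43 and 456 cells, it was at 80.6 and 89.0 CPM. Each library had most of its cells in the cluster where the other had few, and cluster and library cannot be told apart in the sum over the class.

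**Figure D3:**
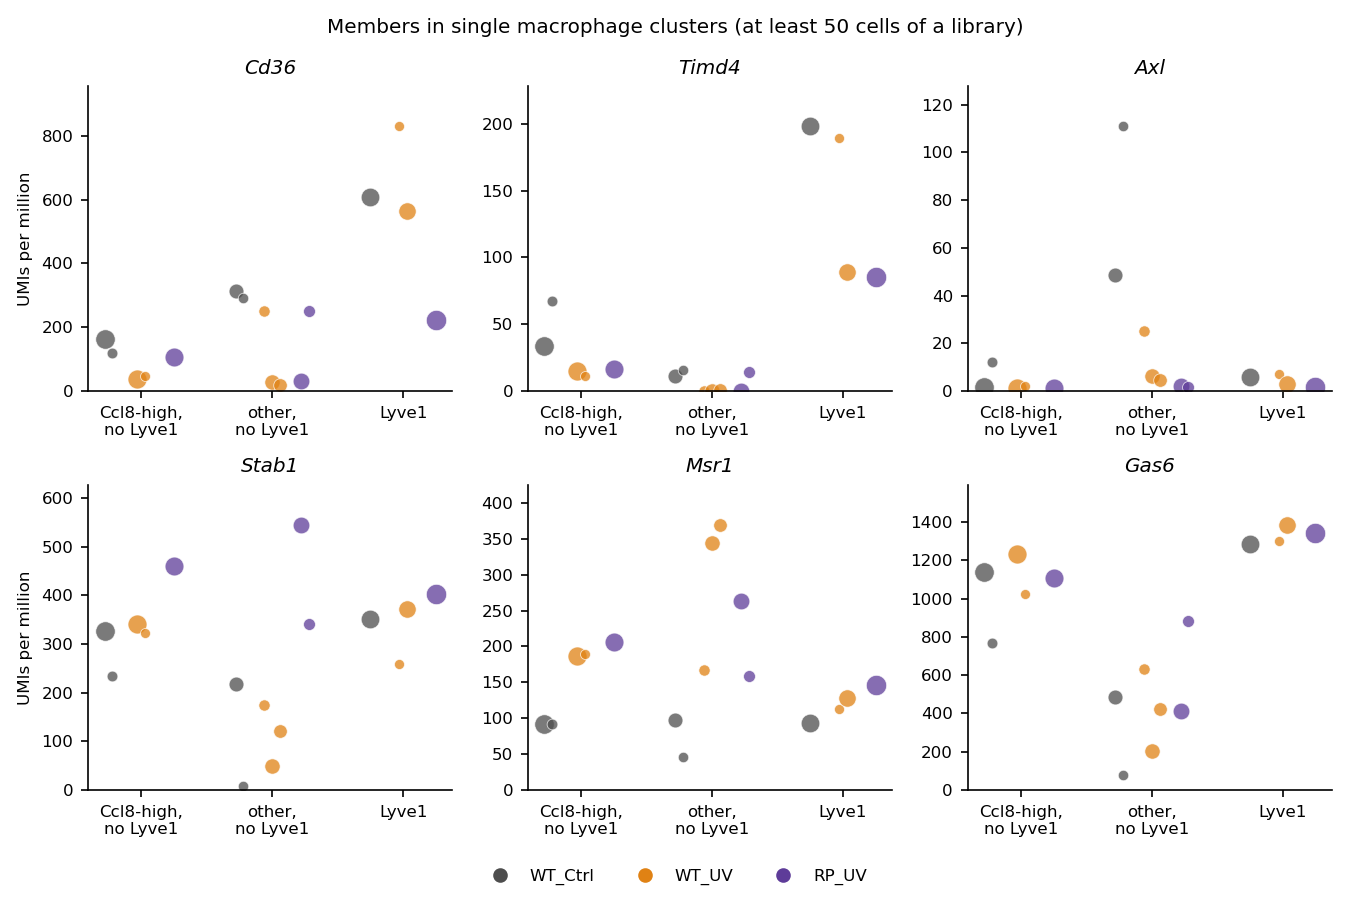
Levels in CPM of Cd36, Timd4, Axl, Stab1, Msr1 and Gas6 in single macrophage clusters, 1 point per cluster and library with at least 50 cells, larger for more cells. Clusters are set apart as those led by Ccl8 without Lyve1, other clusters without Lyve1 and clusters with Lyve1; Timd4 was highest in clusters with Lyve1 in each library, Cd36 likewise in both wild-type libraries but not in RP_UV, and Axl in WT_Ctrl clusters of the middle set.

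Axl (ENSMUSG00000002602, chr7:25756500-25788924), the receptor tyrosine kinase that binds Gas6, was counted at low levels. After thinning, its share of cells lay above that of T cells only in macrophages without Lyve1 of WT_UV, and in no library in monocytes. In macrophages without Lyve1, WT_Ctrl had 116 UMIs in 89 cells, or 24.4 CPM (20.2 to 29.3), WT_UV 146 UMIs in 84 cells, or 7.76 CPM, and RP_UV 30 UMIs in 28 cells, or 4.02 CPM. Both irradiated libraries were below the unirradiated one. The ratios to WT_Ctrl were 0.318 (0.247 to 0.409) and 0.165 (0.106 to 0.248). Within a cluster led by H2-Eb1 and Retnla, with 272 cells of WT_Ctrl and 93 of WT_UV, Axl was at 48.8 and 25.3 CPM, a ratio of 0.519. Fibroblasts carried Axl at 103 to 163 CPM, and the 6 fibroblast markers in macrophages without Lyve1 summed to 194 CPM in WT_Ctrl, 70.7 in WT_UV and 57.6 in RP_UV, with 5, 6 and 6 of the markers found and Pdgfra at 0 in WT_Ctrl. That panel moved in the same direction as Axl. With every cell that held a collagen or Dcn UMI left out, the ratio of WT_UV to WT_Ctrl was 0.41.

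Gas6 (ENSMUSG00000031451, chr8:13465374-13494535), the ligand, and Mertk (ENSMUSG00000014361, chr2:128698915-128803162), its other receptor, stayed within 1.5-fold in both macrophage classes in every comparison. Gas6 was at 864, 809 and 809 CPM without Lyve1 and at 1287, 1383 and 1346 with Lyve1. Its ratio of RP_UV to WT_UV without Lyve1 was 1.0 (0.971 to 1.03), which bounds the difference over the class closely. Mertk was at 53.3 CPM (46.9 to 60.3), 65.7 (62.1 to 69.5) and 47.3 (42.5 to 52.5) without Lyve1 and at 97.1, 94.2 and 82.1 with Lyve1. The ratio of RP_UV to WT_UV for Mertk was 0.719 (0.637 to 0.810), below 1 beyond counting error but short of the fold. Over each macrophage class, Gas6 was therefore at a like level in all 3 libraries, whereas of its receptors only Axl was past the fold. Within clusters without Lyve1 that both wild-type libraries shared, Gas6 was higher in WT_UV than in WT_Ctrl. It was at 160 against 80.3 CPM in the Retnla and Lyz1 cluster, a ratio of 1.996 (1.29 to 3.19). In the H2-Eb1 and Retnla cluster it was at 634 against 485.5 CPM, a ratio of 1.307 (1.165 to 1.467). In the shared clusters with Lyve1 the ratios were 1.012 and 1.055, within counting error.

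Msr1 (ENSMUSG00000025044, chr8:39543232-39642750), the class A scavenger receptor, was higher in macrophages of both irradiated libraries. Without Lyve1, WT_Ctrl had 91.4 CPM (83.0 to 100.4), WT_UV 242 (235 to 249) and RP_UV 218 (207 to 228). WT_Ctrl lay below both, and the ratios to it were 2.65 (2.40 to 2.93) and 2.38. With Lyve1 the levels were 91.9, 129 and 146 CPM, and only the ratio of RP_UV to WT_Ctrl, 1.59 (1.34 to 1.89), was past the fold. That call was lost without integration, at 1.48, and with thinned cells, at 1.43. Within shared clusters the direction was the same: in the H2-Eb1 and Retnla cluster Msr1 was at 97.7 CPM in WT_Ctrl and 167 in WT_UV, a ratio of 1.71. Marco (ENSMUSG00000026390, chr1:120474538-120505024), the other class A receptor listed, stayed under 10 CPM in both macrophage classes. With Lyve1 it had 1 UMI in WT_Ctrl and 49 in WT_UV, a ratio of 19.6 (3.35 to 789). Of the 49, 48 lay in a cluster with 456 cells of WT_UV and 43 of WT_Ctrl. WT_Ctrl had 0 Marco UMIs there, a difference within counting error. After thinning, the Marco share with Lyve1 was not above that of T cells in any library.

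Stab1 (ENSMUSG00000042286, chr14:31139017-31168651), the stabilin that clears matrix fragments and modified lipoproteins, was highest in RP_UV. Its level without Lyve1 was 268 CPM in WT_Ctrl (254 to 284), then 228 in WT_UV (222 to 235), and in RP_UV it was 450 (435 to 465). The ratio of RP_UV to WT_UV was 1.97 (1.88 to 2.06), with 1.72 to 2.44 under the other settings, and that to WT_Ctrl was 1.68. Within clusters that RP_UV and WT_UV shared, the difference was smaller. In a cluster of 48 cells of RP_UV and 51 of WT_UV, Stab1 was at 343 and 323 CPM, a ratio of 1.06 (0.833 to 1.34). In the H2-Eb1 and Retnla cluster, with 43 and 93 cells, it was at 293 and 175 CPM, a ratio of 1.67 (1.20 to 2.29). There the ratio of RP_UV to WT_Ctrl, 1.35 (0.97 to 1.84), did not exceed counting error. The macrophages without Lyve1 were then split by cluster. The Ccl8-led clusters had Ccl8 at 32840, 29180 and 19190 CPM, and the other large group of clusters, called Ccl8-low here, had it at 8364, 1505 and 1906. In the Ccl8-led cells Stab1 was at 313, 327 and 448 CPM, and in the Ccl8-low cells at 229, 103 and 478. The RP_UV levels of both sets were alike, and the low value of WT_UV lay in the second set. With Lyve1, Stab1 was at 357, 365 and 401 CPM, within 1.5-fold.

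The same split divided Cd36 and Axl. In the Ccl8-led cells Cd36 was at 152, 43.2 and 103 CPM, and in the Ccl8-low cells at 335, 71.8 and 78.6. The ratio of WT_UV to WT_Ctrl was 0.283 in the first and 0.214 in the second, whereas that of RP_UV to WT_UV was 2.38 in the first and 1.10 in the second. Axl was at 4.66, 3.24 and 2.01 CPM in the Ccl8-led cells and at 55.3, 12.3 and 6.05 in the Ccl8-low cells. Of the Axl UMIs of macrophages without Lyve1, the Ccl8-low cells held 62 of 116, 87 of 146 and 19 of 30 in the same order of libraries. Gas6 was at 1088, 1154 and 1082 CPM in the Ccl8-led cells and at 472, 351 and 494 in the Ccl8-low cells. The sets did not hold the same clusters in each library. In the H2-Eb1 and Retnla cluster, part of the Ccl8-low set, Cd36 was at 312 CPM in WT_Ctrl and 250 in WT_UV. Axl there was at 48.8 and 25.3 CPM. Clusters of 303 and 198 WT_UV cells in the same set, with under 40 of WT_Ctrl in each, had Cd36 at 28.1 and 19.8 CPM. Cluster and library cannot be told apart in the sums over a set. Differences between the sets were not tested.

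Mrc1 (ENSMUSG00000026712, chr2:14229414-14332023) and Lrp1 (ENSMUSG00000040249, chr10:127538157-127621148) were near level in macrophages. The Mrc1 ratio of WT_UV to WT_Ctrl was 1.06 (1.04 to 1.08) without Lyve1. Lrp1 was at 154, 181 and 213 CPM without Lyve1 and at 120, 120 and 129 with Lyve1, with its largest ratio, 1.39 (1.27 to 1.51), between RP_UV and WT_Ctrl.

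In macrophages without Lyve1, Cd36, Timd4 and Axl were lower in both irradiated libraries, and Stab1 was higher in RP_UV. The sequences upstream of these 4 genes are therefore shown. They are RefSeq promoter windows of GRCm38.p6, 5′ to 3′, for 9 of the 10 members matched, cut where an annotated exon or the gene's outer end begins. Each of these 4 windows belongs to a start inside the gene's outer ends. Capitals mark a match, on either strand, to AGGTCA, a nuclear receptor half-site, or to TGCTGA, a Maf half-site.
Cd36, chr5:17836078-17836146, minus strand: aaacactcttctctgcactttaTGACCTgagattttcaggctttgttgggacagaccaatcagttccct
Timd4, chr11:46810549-46810785, plus strand: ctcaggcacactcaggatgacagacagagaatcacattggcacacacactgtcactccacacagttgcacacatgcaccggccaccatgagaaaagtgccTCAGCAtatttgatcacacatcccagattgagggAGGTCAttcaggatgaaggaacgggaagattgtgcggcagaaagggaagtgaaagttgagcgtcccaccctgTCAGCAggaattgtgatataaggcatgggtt
Axl, chr7:25788925-25788983, minus strand: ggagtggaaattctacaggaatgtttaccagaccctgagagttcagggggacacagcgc
Stab1, chr14:31168652-31168891, minus strand: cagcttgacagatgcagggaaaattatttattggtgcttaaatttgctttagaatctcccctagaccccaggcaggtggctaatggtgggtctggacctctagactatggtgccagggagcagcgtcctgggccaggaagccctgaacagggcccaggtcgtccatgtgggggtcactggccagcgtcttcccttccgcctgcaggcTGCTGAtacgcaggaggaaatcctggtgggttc
The part past the cut, which is not printed, was 181 bases for Cd36, 13 for Timd4, 191 for Axl and 10 for Stab1. Over the full 250 bases before the start, that part included, AGGTCA was found in the windows of Cd36 and Timd4. It was found in 14.0% of 32851 promoters of the table. TGCTGA was found in those of Cd36, Timd4 (2 matches) and Stab1 and in 16.1% of promoters. Neither GAGGAAGT, a PU.1 site held by 2.44% of promoters, nor TGANTCA, an AP-1 site held by 6.75%, was found in any of the 9 windows. The motifs do not overlap each other in the windows printed. A match is a description of the letters and says nothing of a factor at that place.

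Macrophages with and without Lyve1 were next compared inside each library, where no difference of run or depth between libraries enters. In WT_Ctrl, 3 members were higher with Lyve1 and 1 lower, beside 6.97% and 4.60% of 7895 genes tested. In WT_UV 4 were higher and 2 lower, beside 6.03% and 6.56% of 7982 genes, and in RP_UV 4 were higher and 1 lower, beside 8.35% and 5.47% of 7821. Cd36 and Timd4 were higher with Lyve1 in all 3 libraries. The ratio for Cd36 was 2.84 (2.61 to 3.09) in WT_Ctrl, 9.73 (9.08 to 10.4) in WT_UV and 2.33 in RP_UV. That for Timd4 was 6.21 (5.11 to 7.58), 11.3 and 8.40.

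The TAM axis leaned the same way for the ligand and Mertk and the other way for Axl. Gas6 had ratios of 1.49, 1.71 and 1.66, and Mertk of 1.82, 1.43 and 1.74, each past the fold in 2 of the 3 libraries. Axl had a ratio of 0.213 in WT_Ctrl and was under 10 CPM in both classes of the irradiated libraries. Stab1 was higher with Lyve1 only in WT_UV, at 1.60 beside 1.33 and 0.891. Msr1 was lower in WT_UV at 0.533, beside 1.01 and 0.671, and Lrp1 was lower in both irradiated libraries at 0.662 and 0.604, beside 0.780. Mrc1 did not separate the classes, with 0.970, 1.03 and 0.958.

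**Figure D4:**
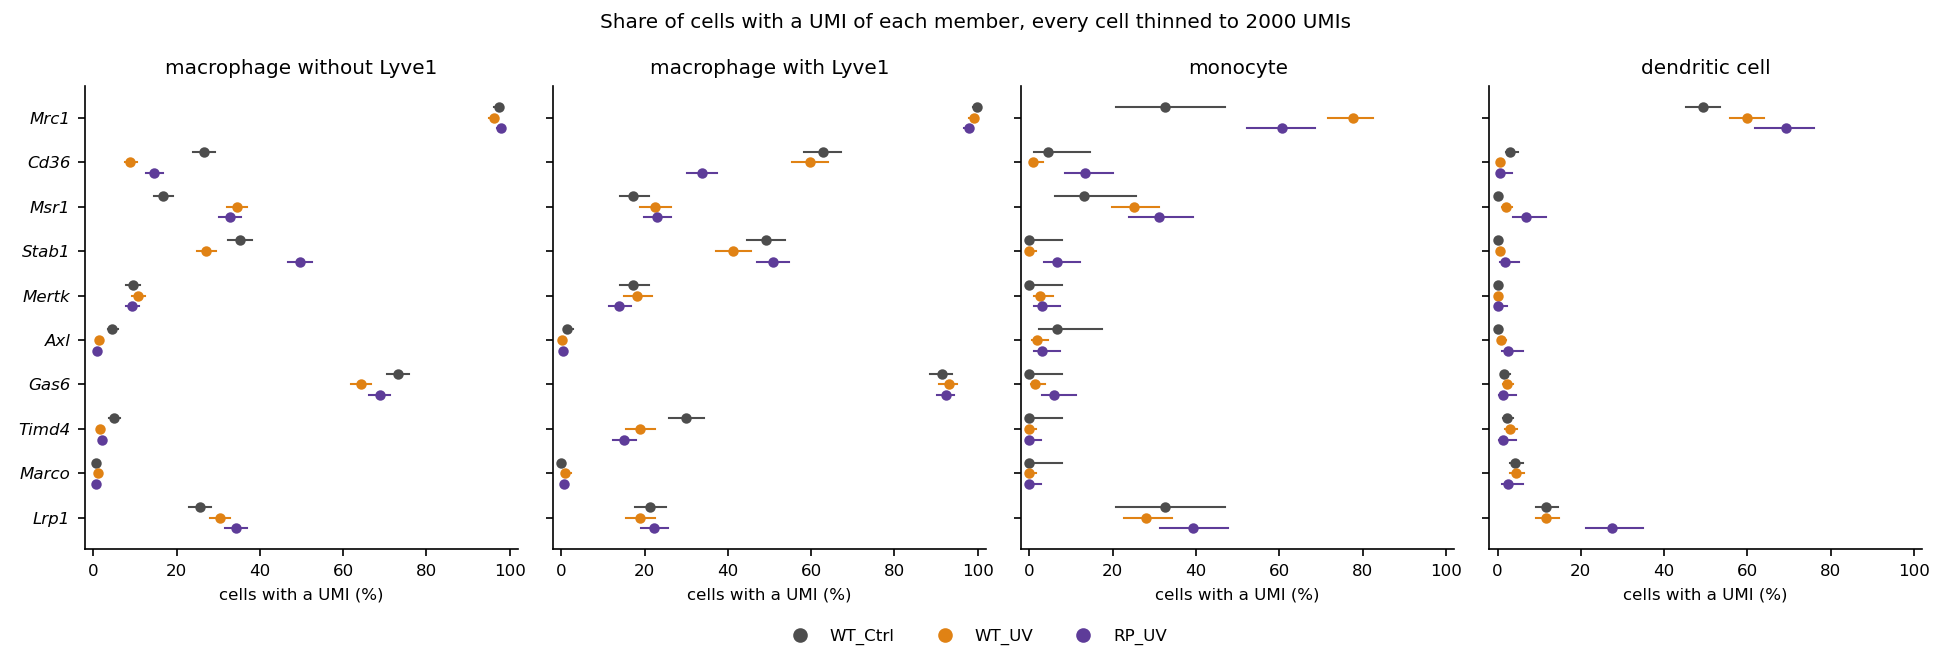
Share of cells with a UMI of each member after every cell was thinned to 2000 UMIs, by library in 4 classes, with Wilson 95% intervals. Cd36 was found in 62.7%, 59.7% and 33.8% of macrophages with Lyve1 in WT_Ctrl, WT_UV and RP_UV, and in 26.6%, 8.93% and 14.6% of those without.

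Monocytes are the blood-derived precursors of many skin macrophages. Between WT_UV and WT_Ctrl, 2 of the 7 members at 10 CPM or more were higher and 0 lower in this class, beside 7.29% and 6.89% of 7604 genes. Between RP_UV and WT_UV, 2 of 8 were higher and 0 lower, beside 12.4% and 11.8% of 7540 genes. Between RP_UV and WT_Ctrl, 5 of 8 were higher (Mrc1, Cd36, Msr1, Stab1 and Gas6) and 0 lower, beside 9.84% and 8.60% of 7605 genes.

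Mrc1 was at 348 CPM in WT_Ctrl monocytes (273 to 437, 74 UMIs), against 1135 in WT_UV (1096 to 1175) and 1144 in RP_UV monocytes (1076 to 1216). The irradiated libraries did not differ from each other beyond counting error, and both stood above WT_Ctrl, with a ratio of 3.26 (2.59 to 4.17) for WT_UV. Msr1 was at 75.2 CPM on 16 UMIs, 179 and 221, with a ratio of WT_UV to WT_Ctrl of 2.38 (1.45 to 4.19) that was not past the fold with thinned cells. In the one monocyte cluster that held over 40 cells of both wild-type libraries, led by Chil3, Plac8 and Ccr2, Mrc1 was at 344 and 928 CPM and Msr1 at 81.0 and 155. The 9 macrophage markers, all found, summed to 1865, 4726 and 7910 CPM in monocytes and so moved with both genes. The part of macrophage RNA in these values was not tested.

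Cd36 and Stab1 were high in RP_UV monocytes alone. Cd36 had 4 UMIs in WT_Ctrl (18.8 CPM), 37 in WT_UV (13.3 CPM) and 165 in RP_UV (182 CPM, 155 to 212). The RP_UV UMIs lay in 29 of 139 cells, with up to 29 in 1 cell. Stab1 had 1, 9 and 39 UMIs, or 4.70, 3.24 and 43.0 CPM. The ratios of RP_UV to WT_UV were 13.6 (9.50 to 20) for Cd36 and 13.3 (6.31 to 31.1) for Stab1. Without integration they were 6.83 and 10.2 and no longer past the fold. Against WT_Ctrl, the Cd36 ratio of 9.67 (3.71 to 35.9) turned to 0.909 without integration and was 1.34 with classes from the marker UMIs of each cell. After thinning, the share of neither gene in RP_UV monocytes lay above that of T cells, of which RP_UV had only 18. The macrophage gene C1qa was also highest in RP_UV monocytes, at 2052 CPM beside 913 in WT_UV. The part of macrophage RNA in the Cd36 and Stab1 values was not tested.

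The RP_UV monocytes were largely 1 cluster, with 85.6% of the class, whose leading genes included S100a9 and S100a8. The 8 neutrophil markers summed to 65.8, 76.4 and 1217 CPM in monocytes of WT_Ctrl, WT_UV and RP_UV, with 3, 5 and 8 of them found, and Retnlg, Ly6g and G0s2 at 0 in both wild-type libraries. With the 44 cells that held an S100a8 or S100a9 UMI left out, the ratios of RP_UV to WT_UV were 15.1 for Cd36 and 11.1 for Stab1. Gas6 had 0, 51 and 26 UMIs, and its RP_UV level was at least 2.03-fold higher than that of WT_Ctrl, counted against the floor of 3 UMIs. With cells thinned to 2000 UMIs that bound was 1.02, no longer past the fold.

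In dendritic cells, 4 of 7 members were higher (Mrc1, Msr1, Gas6 and Marco) and 1 lower (Cd36) in WT_UV than in WT_Ctrl, beside 10.8% and 6.21% of 7455 genes. Between RP_UV and WT_UV, 3 of 7 were higher (Cd36, Msr1 and Lrp1) and 1 lower (Marco), beside 9.73% and 10.3% of 7455 genes. Between RP_UV and WT_Ctrl, 3 of 6 were higher (Mrc1, Msr1 and Lrp1) and 1 lower (Timd4), beside 15.8% and 12.0% of 7490 genes.

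Lrp1 set RP_UV apart in this class. Dendritic cells of WT_Ctrl had 60.8 CPM (53.1 to 69.2), those of WT_UV 78.1 (72.6 to 83.8) and those of RP_UV 177 (152 to 205). The wild-type libraries lay well below RP_UV, with ratios of RP_UV to WT_UV of 2.27 (1.92 to 2.68) and to WT_Ctrl of 2.92 (2.38 to 3.56). Inside 2 dendritic clusters shared by the irradiated libraries it was at 201 against 99.2 CPM and at 184 against 84.5. After thinning, 11.6%, 11.7% and 27.6% of dendritic cells had an Lrp1 UMI (30.2%, 56.7% and 51.5% unthinned), and 0.415%, 0.160% and 0% of T cells.

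Marco, in contrast, was highest in WT_UV dendritic cells, at 32.6 CPM (29.1 to 36.3, 319 UMIs in 81 cells), beside 21.6 (17.2 to 26.8) in WT_Ctrl and 19.9 (12.2 to 30.8) in RP_UV. The ratio of WT_UV to WT_Ctrl was 1.51 (1.18 to 1.95) over the class. This call was lost under 5 settings, with ratios from 1.06 under the 4000-gene limit applied to WT_UV too to 1.48 with collagen or Dcn cells left out. Inside shared dendritic clusters Marco was nevertheless higher in WT_UV, at 75.6 against 26.8 CPM, a ratio of 2.83 (1.87 to 4.4), and at 79.5 against 38.0 CPM, 2.09 (1.42 to 3.14), while another cluster with 15 and 3 UMIs did not exceed counting error. The thinned shares, 4.27%, 4.32% and 2.45%, showed no difference between the wild-type libraries.

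Msr1 and Mrc1 were higher in dendritic cells of the irradiated libraries. Msr1 had 3 UMIs in WT_Ctrl (0.80 CPM), 167 in WT_UV (17.0 CPM) and 33.9 CPM in RP_UV. The ratio of WT_UV to WT_Ctrl was 21.3 (7.17 to 104) over the class. Of the 167 UMIs, 145 lay in 1 cluster of 198 WT_UV cells that was not shared with WT_Ctrl. In the shared clusters Msr1 had 2 and 11, 0 and 2, and 0 and 2 UMIs in WT_Ctrl and WT_UV, none beyond counting error. After thinning, its share was not above that of T cells in any library. Mrc1 had ratios of 1.78 and 2.11 to WT_Ctrl. The 9 macrophage markers, all found, summed to 758, 1147 and 1765 CPM in dendritic cells, with C1qa at 16.3, 114 and 283 CPM, in the same order as both genes. In keratinocytes, which should hold macrophage transcripts only as free RNA, the panel summed to 48.4, 93.6 and 294 CPM. The part of macrophage RNA in these values was not tested, and with classes taken from the marker UMIs of each cell the Mrc1 ratios were 0.866 and 0.937.

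Cd36 in dendritic cells was at 16.8, 4.90 and 12.9 CPM, with a ratio of WT_UV to WT_Ctrl of 0.292 (0.196 to 0.431) over the class. After thinning, its share of dendritic cells was not above that of T cells in any library. The ratio of RP_UV to WT_UV, 2.64 (1.31 to 4.96) on 13 UMIs, was lost under 5 settings, with 1.14 for thinned cells and a reversal to 0.466 with classes from marker UMIs. A small WT_Ctrl cluster of 50 Xcr1-expressing dendritic cells held 45 of the 63 Cd36 UMIs of WT_Ctrl, at 123 CPM, and 17 UMIs of Timd4. The class difference between the wild-type libraries thus lay largely in that cluster. In the clusters that both shared, Cd36 had 3 and 3, 3 and 4, and 5 and 2 UMIs in WT_Ctrl and WT_UV. None of these exceeded counting error. Timd4 over the class was at 16, 11.1 and 5.97 CPM, the last on 6 UMIs, and RP_UV was past the fold below WT_Ctrl at 0.374 (0.132 to 0.862). That call was lost with thinned cells, at 0.422. Of the 60 Timd4 UMIs of WT_Ctrl, 36 lay in a cluster of 200 WT_Ctrl cells and 17 in the Xcr1 cluster. In the dendritic cluster that RP_UV and WT_Ctrl shared, Timd4 had 3 and 2 UMIs, a difference within counting error. Gas6 was at 5.86, 10.5 and 6.97 CPM, and its ratio of WT_UV to WT_Ctrl, 1.79 (1.12 to 2.98), turned to 0.35 with classes from marker UMIs. In Langerhans cells, Timd4 had 21 UMIs in 7 of 69 cells of WT_UV (21.4 CPM, 13.3 to 32.8) and 0 in the other libraries.

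Other genes of the uptake pathway were read from 5 lists in macrophages without Lyve1. The median log2 ratio over all genes tested was 0.07 for WT_UV over WT_Ctrl and -0.04 for RP_UV over WT_UV, with 1 CPM added to each level, and that of the members was -0.10 and 0.12. By the fold rule, 10.1% of all 7957 genes were higher and 4.54% lower in the first comparison, and 8.68% and 12.9% of 7915 in the second, which is the background for each list here. Of other scavenger receptors, 9 of the 17 with a row were tested, and 0 were past the fold between the wild-type libraries. Cd163, the hemoglobin scavenger receptor, was at 788, 734 and 671 CPM. Between RP_UV and WT_UV, Siglec1, the sialic acid receptor CD169, was higher, at 37.4 against 19.4 CPM. Among the genes lower by the same rule were Scarb1, the HDL receptor, at a ratio of 0.577, Lrp6 at 0.595 and Cxcl16 at 0.651.

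Among phosphatidylserine receptors and bridging proteins, 4 of 9 were higher in WT_UV than in WT_Ctrl and 0 lower, with a list median of 0.38. Havcr2, the receptor Tim3, was at 5.47 CPM in WT_Ctrl and 21.5 in WT_UV, a ratio of 3.92. The integrin chains Itgb5 and Itgav, which pair with each other to bind Mfge8-coated cells, had ratios of 2.33 and 2.23, and Lgals3, galectin-3, of 1.71. Trem2, a lipid receptor, was at 77.4 CPM in WT_UV and 154 in RP_UV, whereas Havcr2 was lower in RP_UV at a ratio of 0.499. Pros1, the second TAM ligand, was at 227, 207 and 145 CPM, and Tyro3, the third TAM receptor, had 0, 4 and 2 UMIs.

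Mfge8, the milk-fat globule protein that bridges phosphatidylserine to integrins, was at 12.4, 12.7 and 13.8 CPM in macrophages without Lyve1, but at 1034, 4223 and 7687 CPM in Langerhans cells. It was at 11.5, 78.3 and 77.7 CPM in dendritic cells and at 12, 26 and 19.8 CPM in T cells. Its levels in Langerhans cells rested on 69, 69 and 24 cells and on 341, 4136 and 759 UMIs. The largest Langerhans cluster also differed between the libraries, with 59.4% of the class in one cluster in WT_Ctrl and 71.0% and 87.5% in another in WT_UV and RP_UV.

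Of the engulfment and phagosome genes, 15 were tested. Between the wild-type libraries 1 was higher, the lysosomal protease Ctsl at a ratio of 1.83, and 1 lower, Rubcn at 0.639. In RP_UV, Ctsl and the protease Ctsd were higher again than in WT_UV, Ctsl at 1513 against 737 CPM and Ctsd at 1134 against 473, and Elmo2, which couples receptors to Rac, was lower at 0.334. Of 14 lipid efflux and nuclear receptor genes, 4 were higher and 2 lower in WT_UV than in WT_Ctrl. The oxysterol receptor LXR-alpha gene Nr1h3 was at 2.95 and 14.2 CPM, and the cholesterol exporter Abcg1 at 45.7 and 107. Npc1 and Soat1, which release and store cholesterol, had ratios of 1.71 and 1.65. Pparg, a nuclear receptor known to drive Cd36, was lower at 0.495, as was the lysosomal lipase Lipa at 0.628.

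Between RP_UV and WT_UV, 0 of 13 lipid genes were higher and 3 lower, which were Rxra at 0.561, Soat1 at 0.640 and Abca7 at 0.650. Abca1, the main exporter to lipid-poor apolipoprotein, was at 259, 290 and 317 CPM. Of 7 tested genes for signals against uptake and for shedding of receptors, 1 was higher in WT_UV, the protease Furin, at 52.0 against 125 CPM. In RP_UV Furin was lower at a ratio of 0.584 and Rhbdf2, which carries the sheddase Adam17 to the surface, was higher at 1.55. Adam17, known to cut Mertk and Axl from the surface, was at 90.7, 109 and 72.8 CPM.

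**Figure D5:**
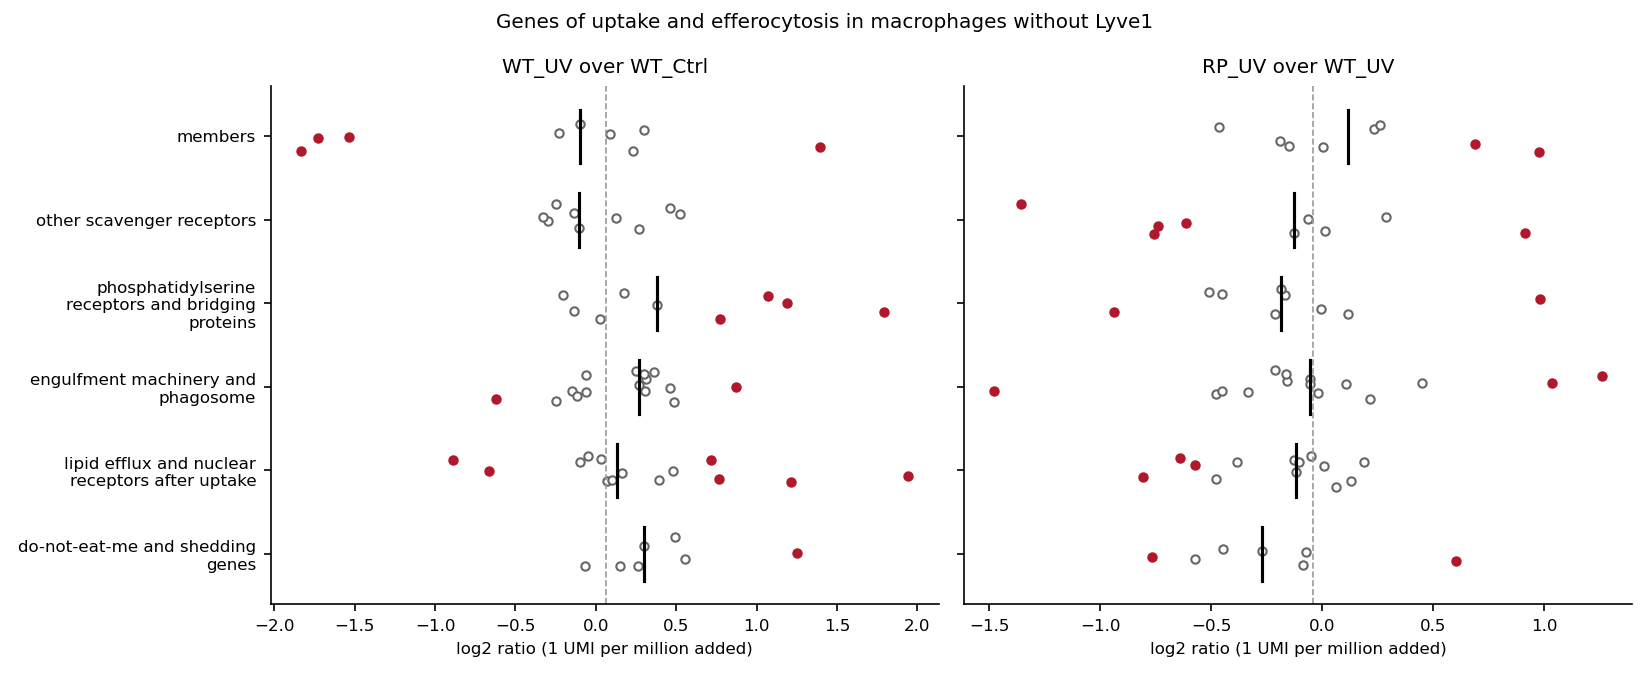
Log2 ratios with 1 CPM added for each gene of the members and of 5 other lists in macrophages without Lyve1, in 2 comparisons. Filled points are past the fold, a bar marks each list's median and the dashed line the median of all genes tested; Cd36, Timd4 and Axl lie at the low end between the wild-type libraries, and Havcr2, Nr1h3 and Furin at the high end.

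The genes most like a member in pattern were sought by Pearson's r of log2 CPM, with 1 added, over 15 points, the 5 classes in 3 libraries, among 8316 genes. The points share libraries and depth, so r is a description. Nearest to Mrc1 were Sdc3 (0.977), Dusp3 (0.976) and Tmem106a (0.976), and to Mertk Lamp2 (0.985), Slc28a2 (0.979) and Maf (0.977). Nearest to Gas6 were Tbc1d9b (0.986), Man1a (0.979) and Slc12a7 (0.969), and to Cd36 Dhrs3 (0.974), Pgpep1 (0.955) and Tbxas1 (0.955). Axl had the loosest matches, with C3 (0.902), Atp2b1 (0.902) and Tmem51 (0.894).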

How the data were processed

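The authors aligned reads with Cell Ranger 6.1.1 to mm10 and deposited filtered raw UMI counts per gene and cell, 1 matrix per library, without normalization. Cells with under 10% mitochondrial UMIs, over 200 genes and under 4000 genes (6000 in WT_UV, as in the methods of the study) were kept; this retained 1112 WT_UV cells of 4000 genes or more. Libraries were normalized with sctransform 0.4.2, integrated in Seurat 5.3.0 (R 4.3.3, 3000 features, 30 dimensions, resolution 0.8), and split again with Leiden clustering (leidenalg 0.10.2, scanpy 1.11.5, resolution 0.5, members left out of the genes used) into 133 clusters. Names come from 23 marker panels and are to be read as X-like: 88 clusters were named, and 17.5%, 19.4% and 18.7% of cells stayed unnamed in WT_Ctrl, WT_UV and RP_UV. Limits on naming were set after clusters were seen. Macrophage clusters of at least 300 CPM Lyve1 form the class with Lyve1. No doublets were removed.

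UMIs were summed per class and library. The floor is 3 counts. Floors and intervals hold for counting error alone. A gene was tested where it reached 10 CPM in either library, and was past the fold at a ratio of 1.5 or more, or its inverse, with an interval that left out 1. No count model was fitted. The members and lists were chosen with earlier results of these data known. Named beside the members are the 3 highest and 3 lowest genes past the fold of each list in macrophages without Lyve1 and, whatever their values, Mfge8, Pros1, Tyro3, Cd163, Adam17 and Abca1. Cxcl16, Lgals3 and Soat1 were named after their values were seen, as was the split by Ccl8 chosen. Clec7a was not analysed here, and a gene of that list is not reported here. Promoter windows are RefSeq sequences of GRCm38.p6, cut with GENCODE exons matched on GRCm39. The settings that leave out cells with S100a8 or S100a9 and cells with collagen or Dcn were chosen after seeing the data.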

Additional observations from a re-analysis of the deposited data

Results flagged for a closer look

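Timd4 went in opposite directions between WT_UV and WT_Ctrl in different classes, at ratios of 0.279 in macrophages without Lyve1 and 0.506 in those with Lyve1, but at least 2.36-fold higher in Langerhans cells, where the count rested on 21 UMIs against 0. Cd36 did so between RP_UV and WT_UV, at 0.389 in macrophages with Lyve1 against 1.62 in those without, 13.6 in monocytes and 2.64 in dendritic cells. The dendritic value was not past the fold under 5 settings, and the monocyte value without integration. Between RP_UV and WT_Ctrl, Cd36 was at 0.450 without Lyve1 and 0.370 with Lyve1, and at 9.67 in monocytes. These differences between classes were not tested.

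Clusters that stayed unnamed and were led by Retnla and Ear2 (WT_Ctrl 209 cells, WT_UV 160 and RP_UV 42) also carried members at a different level than in the unirradiated library: Mrc1 at 920 CPM in WT_UV and 609 in WT_Ctrl, Msr1 at 43.1 and 5.59 CPM, and Marco at 11.2 CPM and 0. Cd36, at 50.2 and 124 CPM, and Axl, at 28.5 and 48.7 CPM, were lower there in WT_UV. Of 7518 genes tested in these clusters, 848 were higher and 443 lower in WT_UV.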

How the results depend on the processing

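Of 39 ratios of members past the fold, 33 kept their direction under every setting that gave a value, and 20 also stayed past the fold. The 6 that reversed did so under 2 settings. Without integration, Cd36 was at 0.452 between RP_UV and WT_UV in macrophages without Lyve1 and at 0.909 between RP_UV and WT_Ctrl in monocytes. With classes taken from marker UMIs of each cell, dendritic cells had Mrc1 at 0.866 and Gas6 at 0.35 between WT_UV and WT_Ctrl, Cd36 at 0.466 between RP_UV and WT_UV, and Mrc1 at 0.937 between RP_UV and WT_Ctrl. The cause was not tested. Over 5 classes, 13, 9 and 17 members by class were past the fold for WT_UV over WT_Ctrl, RP_UV over WT_UV and RP_UV over WT_Ctrl. Classes from marker UMIs gave 23, 17 and 26, and a fold of 2 gave 5 for RP_UV over WT_UV. Shares over all genes stand beside the counts of each class above. They are not given for Langerhans cells or for the other settings, so these totals describe the spread between settings only. Scaling by the median ratio instead of the total shifted ratios of RP_UV over WT_Ctrl most, by 0.15 on the log2 scale in macrophages without Lyve1 and 0.13 in dendritic cells. Of the remaining values under other settings, 884 of single members moved by less than their counting interval and 320 by more. No paired analysis was possible because each group had 1 library, and none could be left out. Depth limits Marco, Axl and all members in Langerhans cells of RP_UV, which were 24 cells.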
